A study of Mus musculus with 54 samples.

Results

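On the deposited scale, a small class of autosomal windows of the mouse genome replicated late in embryonic stem cells (ESCs). The same windows had more early than late S phase signal in both neural precursor cells (NPCs) and embryonic fibroblasts (MEFs). Timing is the log2 ratio of early to late S phase signal in windows of 50 kb, averaged over the 2 alleles of a hybrid cell, so that a positive value means more signal early. A window was a member where the mean over ESC lines was below -1, the means over NPC lines and over MEF embryos were both above 0, and these last means lay less than 1 apart. The rule took 388 of 43941 autosomal windows (0.883%), or 19.4 Mb. Of these, 168 also met it after median centring of the columns and 231 after quantile normalization. The group means chose the windows. The levels in the ESC lines in 2i, the NPCs and the MEFs are therefore given as a description and carry no test.

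Replication timing is the order in which chromosome domains are copied during S phase. Early domains usually lie in open, gene-dense chromatin in the nuclear interior, and late domains in compact chromatin near the lamina. A part of the genome changes its timing when stem cells take up a lineage, and such domains commonly hold developmental genes with tissue-restricted expression.

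The study measured timing on the 2 parental genomes of hybrid mouse cells by Repli-Seq, in which BrdU-labelled DNA of cells sorted from early and late S phase is sequenced. The ESC group of the rule was 5 hybrids of 129 and Cas (castaneus mice) grown feeder-free in 2i medium (MEK and GSK3 inhibitors with LIF): the male F123 and the lines F121, F121-6 and F121-9, labelled 129 / cas, and Cas129, labelled with the strains in the opposite order. The NPCs had been derived from the female lines F121-9 and Cas129 and taken at day 11. The MEFs came from 4 embryos of the cas / 129 cross, embryos 1 and 2 labelled female and 3 and 4 male. No further allele or transgene is named for these groups in the labels, and the age of the embryos is not given there. Cells outside the rule were F121-6 and F121-9 on inactivated MEF feeders in ES medium, the male line V6.5 (C57B6 / 129) in 2i, and 1 female extraembryonic endoderm (XEN) line (C57B6 / cas). Each line was counted as 1 unit, and F121-9 and Cas129 gave ESC as well as NPC profiles. F121, F121-6 and F121-9 share a cross label and a name stem, and whether they are separate derivations was not tested. Nothing in the labels says that repeat profiles came from separate cultures, so profiles of a line or embryo were averaged, and p-values measure the spread between lines and embryos.

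The deposited file holds ratios and no read counts, so its depth is unknown. The 54 libraries form 27 profiles, and their columns lie on 2 levels: the median over autosomal windows was -0.63 for the middle one of 34 ESC and NPC columns and -0.03 for that of 20 MEF and XEN columns. A difference between MEFs or XEN cells and ESCs crosses these levels. The X tracks of 2 embryos went against their labels: the 129 X of embryo 1, labelled female, was flat (SD along the X 0.255 and 0.301 in its 2 profiles), as in the male embryo 4, while embryo 3, labelled male, had no flat track (1.32 to 1.69). Without embryos 1 and 3 the rule gave 389 windows, of which 373 were shared. The 2 allele columns of V6.5 hardly differed at the member windows, with a median size of 0.03 against 0.31 to 0.42 in the 5 ESC lines of the rule, so only its mean timing is used. The timing track is no measure of expression, so the cell types could not be checked against RNA markers. All 22 placed pluripotency genes lay outside the ESC-late windows, with a median timing of 2.43 in ESCs.

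The member windows formed 116 regions when joined over gaps of at most 2 windows, on all 19 autosomes. The regions were short: 39 were a single window, the median was 2 windows and the longest 15, and 40 regions of at least 4 windows held 264 of the 388. Chromosome 13 had the largest share of its windows in the class (1.96%, 43 windows in 14 regions), followed by chromosomes 14 (1.63%) and 6 (1.58%), and chromosome 16 the smallest (0.113%, 2 windows). The median distance to the nearest window with ESC timing above 0 was 200 kb, and 3 regions lay within 100 kb of one and 27 more than 500 kb away.

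Protein-coding gene starts were sparse in these windows and lay in CpG-rich promoters. The windows held 56 protein-coding starts, or 14.4 for each 100 windows, against 14.2 in the other 20015 windows with ESC timing below -1 and 41.6 over all autosomal windows. Starts of long non-coding RNA genes numbered 37.1 for each 100 member windows, against 13.1 in the other ESC-late windows and 26.1 overall. In the 300 bases from 250 before to 50 after the gene start, the 45 members' genes with a promoter in the RefSeq table had a median of 21 CG dinucleotides, against 3 in the other ESC-late windows and 15 overall. At least 10 of them were found in 75.6% of the member promoters, 27.8% of the other ESC-late promoters and 60.7% of all. Among other windows with ESC timing from -2 to -1, the range that held 279 of the 388 members, the median was 4 and the share 34.6%. Protein-coding starts in that range numbered 15.1 for each 100 member windows and 23.3 for each 100 other windows. Starts of long non-coding RNA genes numbered 40.5 and 20.3. The median length of the genes that start in members was 53.5 kb, against 13.4 kb in the other ESC-late windows, and 32.0% of members overlapped a protein-coding gene longer than 300 kb, against 18.9%. A protein-coding gene overlapped 53.6% of members, against 36.3% of the other ESC-late windows and 57.8% of all. The share was 49.4% in other windows of ESC timing from -2 to -1. No protein-coding gene overlapped the remaining 180 members.

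The promoters printed here are examples with many and with few CG in the regions described below. They are taken from RefSeq on GRCm38.p6 (mm10), written 5′ to 3′ on the strand of the gene with each CG in capitals and the other bases in lower case, and the motif searched was CG, which reads the same on both strands. Irs2 (chr8:11008880-11009179, minus strand, 41 CG), Gli3 (chr13:15463473-15463772, plus strand, 39), Creb5 (chr6:53287053-53287352, plus strand, 31) and Fgf5 (chr5:98253934-98254233, plus strand, 29) are dense, and Ptn (chr6:36810130-36810429, minus strand, 6) is not.
Irs2: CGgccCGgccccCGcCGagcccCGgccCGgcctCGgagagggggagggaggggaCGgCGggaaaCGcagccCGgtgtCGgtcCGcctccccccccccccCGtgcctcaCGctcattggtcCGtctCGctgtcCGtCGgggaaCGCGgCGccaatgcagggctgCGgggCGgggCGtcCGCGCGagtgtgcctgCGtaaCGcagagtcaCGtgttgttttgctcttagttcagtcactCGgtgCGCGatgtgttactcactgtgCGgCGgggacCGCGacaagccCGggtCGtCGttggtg
Gli3: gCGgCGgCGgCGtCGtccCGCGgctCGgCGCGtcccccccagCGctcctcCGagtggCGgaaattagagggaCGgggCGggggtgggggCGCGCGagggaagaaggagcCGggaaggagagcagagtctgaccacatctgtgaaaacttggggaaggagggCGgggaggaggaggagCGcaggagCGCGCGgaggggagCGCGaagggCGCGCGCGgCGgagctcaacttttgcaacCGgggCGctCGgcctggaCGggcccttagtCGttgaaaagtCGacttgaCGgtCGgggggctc
Creb5: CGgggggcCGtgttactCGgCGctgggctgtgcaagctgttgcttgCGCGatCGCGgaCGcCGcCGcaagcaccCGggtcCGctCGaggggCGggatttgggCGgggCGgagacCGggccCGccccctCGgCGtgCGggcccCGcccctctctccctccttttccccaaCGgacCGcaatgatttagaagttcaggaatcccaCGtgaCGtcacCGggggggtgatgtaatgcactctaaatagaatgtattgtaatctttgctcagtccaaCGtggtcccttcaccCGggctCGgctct
Fgf5: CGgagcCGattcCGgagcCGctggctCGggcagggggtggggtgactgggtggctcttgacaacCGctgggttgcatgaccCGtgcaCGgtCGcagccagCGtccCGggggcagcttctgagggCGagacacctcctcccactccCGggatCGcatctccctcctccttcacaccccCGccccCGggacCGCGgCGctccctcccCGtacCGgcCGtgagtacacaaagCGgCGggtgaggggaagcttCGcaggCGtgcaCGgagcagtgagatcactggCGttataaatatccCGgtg
Ptn: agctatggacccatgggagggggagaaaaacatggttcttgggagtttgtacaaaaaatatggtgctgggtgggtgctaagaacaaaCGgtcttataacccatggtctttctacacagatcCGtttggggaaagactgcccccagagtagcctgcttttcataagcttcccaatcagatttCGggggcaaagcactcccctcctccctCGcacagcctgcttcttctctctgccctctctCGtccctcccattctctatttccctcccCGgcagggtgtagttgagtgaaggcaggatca
These letters describe the windows' gene starts and say nothing of which factor acts there.

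Timing at the member windows separated the ESC lines of the rule from the NPCs and MEFs, as the rule requires, and the lines of a group lay close together. The median over the 388 windows was -1.60 in F121, -1.80 in F121-6, -1.51 in F121-9, -1.57 in F123 and -1.75 in Cas129. It was 0.72 in F121-9 NPCs and 0.67 in Cas129 NPCs, and 0.85, 0.90, 0.88 and 0.94 in MEF embryos 1 to 4. The group means ran from -3.86 to -1.0016 in ESCs, from 0.00 to 2.72 in NPCs and from 0.00 to 2.74 in MEFs. ESC timing was below -2 in 109 windows and below -3 in 32, and both NPC and MEF timing exceeded 1 in 96. Just inside the thresholds lay windows with an ESC mean of -1.0016, an NPC mean of 0.0036 and a MEF mean of 0.0043, and just outside, -0.9992, -0.0008 and -0.0029.

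**Figure D1:**
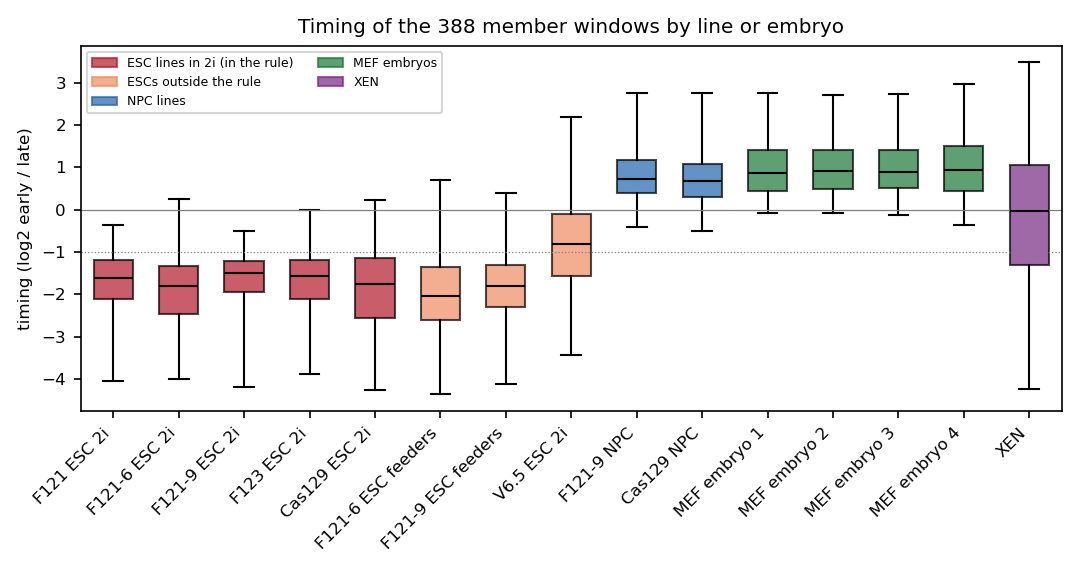
Timing (log2 early over late) of the 388 member windows in each line or embryo; boxes span the quartiles, the line is the median and whiskers reach the lowest and highest window. ESC lines of the rule have medians from -1.80 to -1.51, NPCs and MEFs from 0.67 to 0.94, V6.5 ESCs -0.81 and XEN cells -0.03, and the NPC and MEF medians follow from how the windows were chosen.

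In the larger regions the difference between the cell types was largest near the centre, which the choice of the centre favours. It had not vanished at 1000 kb after the centre. Around the window of largest difference in the 40 regions of at least 4 windows, the median ESC timing was -1.98 at the centre, -1.01 at 450 kb before it and -1.15 at 450 kb after it, and 0.15 and -0.32 at 1000 kb to either side. NPCs had medians of 0.67 at the centre and 0.50 and 0.26 at 1000 kb before and after it, and MEFs 0.92, 0.20 and 0.83. Out to 1000 kb on both sides, the NPC median lay between -0.0032 and 0.97 and the MEF median between 0.20 and 1.14. The centre was chosen by these same values, and the regions' orientation is that of the chromosome.

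**Figure D2:**
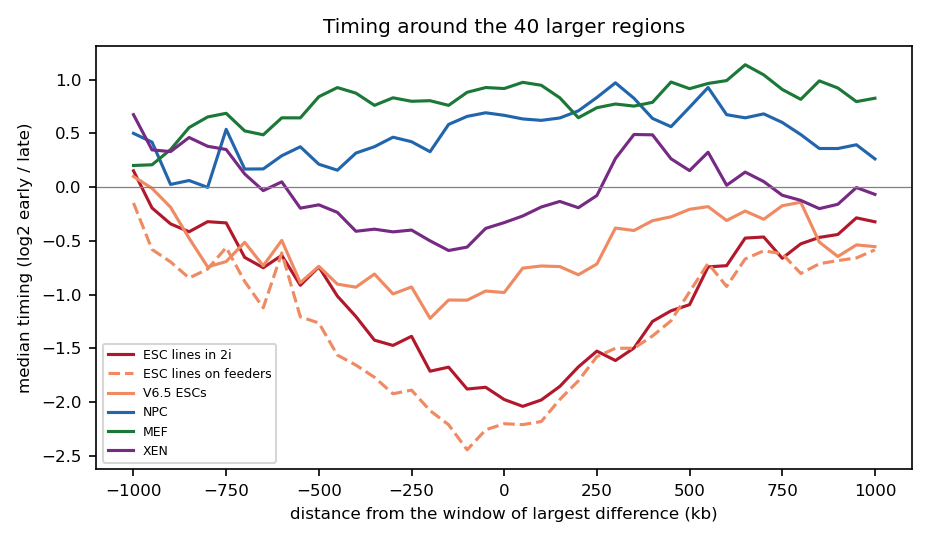
Median timing (log2 early over late) against distance in kb from the window of largest difference, over 40 regions of at least 4 member windows (36 to 40 regions at each distance). The ESC lines fall to -1.98 at the centre where NPCs and MEFs lie at 0.67 and 0.92, V6.5 ESCs are at -0.98 and XEN cells at -0.33.

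The regions with most windows and those with the largest difference named 15 regions. The longest, 15 windows on chromosome 8 (chr8:10350001-11100000), held the start of Irs2, a docking protein of insulin and IGF receptors, and overlapped Myo16. Its mean timing was -1.70 in F121, -2.70 in F121-6, -2.02 in F121-9, -2.17 in F123 and -2.26 in Cas129 ESCs, 2.12 and 1.97 in F121-9 and Cas129 NPCs and 1.88, 1.90, 1.90 and 2.09 in MEF embryos 1 to 4. The groups do not overlap, which the choice of the windows favours. The XEN line stood above both, at 2.72, and V6.5 ESCs between them, at -0.28.

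The other named regions with a protein-coding start also had their lowest mean in ESCs, as the rule requires. Cog6, a Golgi complex subunit, and Lhfp shared 12 windows (chr3:52550001-53150000) with a mean of -1.93 ± 0.35 (SD, n = 5 lines) in ESCs, 1.63 in NPCs (n = 2) and 2.20 ± 0.11 (SD, n = 4 embryos) in MEFs. Creb5, a bZIP transcription factor of the CREB family, lay in 12 windows (chr6:53100001-53700000) at -1.88 ± 0.42, 1.13 and 1.35 ± 0.13 in the same order. Ptn, the secreted growth factor pleiotrophin, lay in 8 windows (chr6:36600001-37000000) at -2.50 ± 0.25, 0.98 and 1.41 ± 0.19, Wdr11 in 11 windows (chr7:129500001-130050000) at -1.52 ± 0.18, 1.49 and 1.21 ± 0.18, Anxa3, an annexin, in 8 windows (chr5:96550001-96950000) at -2.30 ± 0.41, 1.02 and 1.11 ± 0.09, and Mmd with the PAR bZIP factor Hlf in 8 windows on chromosome 11 from 90050001 at -1.45 ± 0.42, 0.69 and 0.61 ± 0.21. Maml3, a co-activator of Notch signalling, had the highest NPC and MEF means among the 15 regions (4 windows on chromosome 3 from 51950001, -1.17 ± 0.37, 2.55 and 2.32 ± 0.04), and Setbp1 (4 windows on chromosome 18 from 78600001) was at -2.85 ± 0.39, 0.39 and 0.92 ± 0.20.

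The other 6 named regions contain no protein-coding start and were named by a gene they overlap or lie nearest to, which was chosen after their values were seen. Lowest in ESCs was a region over Efna5, an ephrin ligand (chr17:62450001-62700000, -3.75 ± 0.27), with 0.39 in NPCs and 0.72 ± 0.15 in MEFs, and next a region over Pappa and Astn2 (chromosome 4 from 65200001) with -3.42 ± 0.36, 0.24 and 0.88 ± 0.04. Regions over Lrmda and over Foxp1, a forkhead factor, had ESC means of -2.91 ± 0.26 and -1.72 ± 0.49, with 0.70 and 0.78 in NPCs and 1.07 ± 0.06 and 0.87 ± 0.19 in MEFs. The regions nearest Prl5a1 (148 kb away) and Efnb2 (67.2 kb away), both free of a protein-coding gene, were at -2.42 ± 0.65 and -2.37 ± 0.46 in ESCs, with 0.78 and 1.13 in NPCs and 0.79 ± 0.10 and 1.00 ± 0.13 in MEFs.

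**Figure D3:**
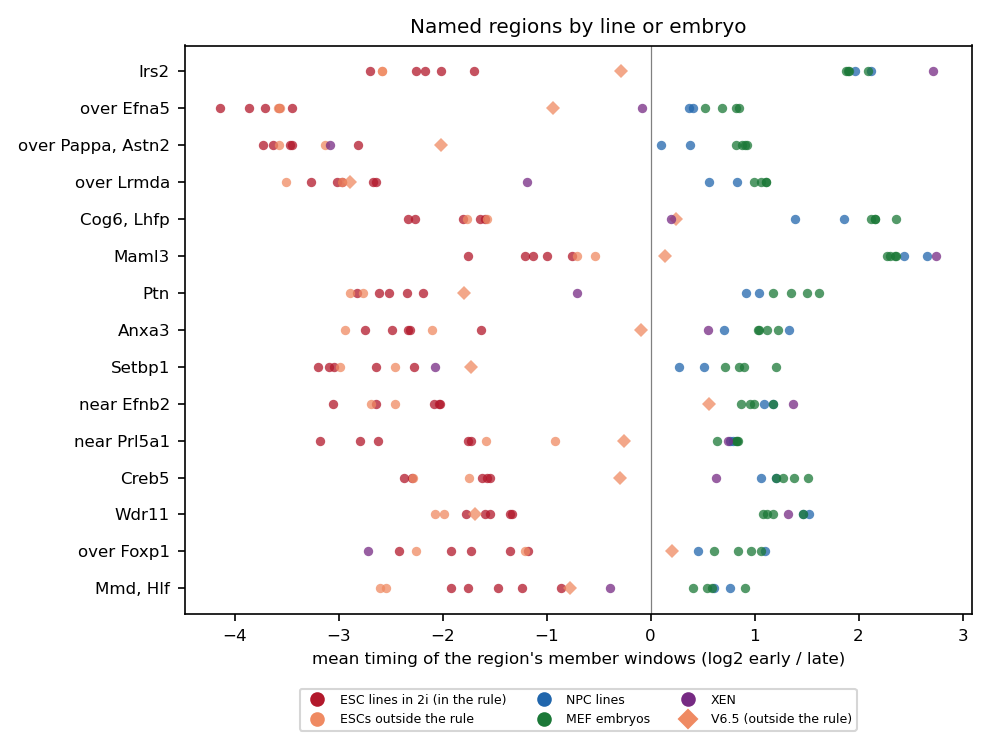
Mean timing (log2 early over late) of each named region's member windows, 1 point for each line or embryo, with V6.5 ESCs as a diamond. In every region the ESC lines of the rule lie left of the NPC and MEF points, and XEN cells range from -3.08 over Pappa and Astn2 to 2.75 at Maml3.

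Of 17 gene lists drawn up for stem cell, lineage and signalling genes, 4 had a member. Developmental transcription factors of neural and mesenchymal tissue gave 3 of 43 placed genes: Gli3, the repressor and activator of Hedgehog signalling, Nr2f2, an orphan nuclear receptor, and Tshz1, a zinc finger factor. WNT signalling gave 1 of 43, Wnt5a, a ligand of non-canonical WNT signalling. The FGF, PDGF, EGF and IGF list gave 1 of 37, Fgf5, a growth factor of primed pluripotent cells, and axon guidance 1 of 37, Sema3e, a semaphorin. The other 13 lists gave none, and over all protein-coding genes the share was 56 of 18263 (0.307%). The lists were chosen with earlier results of these data known, and the counts are a description.

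The windows of Gli3 and Wnt5a lay apart between the ESC lines and the other cells in every sample of the rule, as the rule favours. The window of Gli3 read -2.06, -2.11, -1.95, -1.504 and -3.23 in ESCs of F121, of F121-6 and F121-9, of F123 and of Cas129, 0.67 and 0.41 in F121-9 and Cas129 NPCs, and 0.56, 0.53, 0.49 and 0.26 in MEF embryos 1 to 4. That of Wnt5a read -2.48, -2.68, -1.60, -1.65 and -1.499 in the same ESC lines, 0.31 and 0.54 in the NPCs and 1.07, 1.07, 1.01 and 1.06 in the MEFs. The window of Fgf5 was lower in the NPCs of F121-9 (-0.42) than in those of Cas129 (0.52), with 0.19 to 0.42 in the MEFs and -2.81 to -1.71 in the ESCs.

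The windows were also late in feeder-grown ESCs of F121-6 and F121-9, lines whose 2i profiles entered the rule. They were less so in V6.5, the only ESC line outside the rule. Their median timing was -2.04 in F121-6 on feeders and -1.81 in F121-9 on feeders, with 97.9% and 98.97% of windows below 0, and -0.81 in V6.5 in 2i, with 78.6%. The mean of the 3 was below 0 in 98.2% of members and below -1 in 79.6%. V6.5 was above 0 in 83 windows (21.4%) of 26 regions and below -1 in 165 (42.5%), against 91.1% of the other ESC-late windows. In the matched range of ESC timing from -2 to -1, it was below -1 in 39.4% of members and in 73.5% of the other windows.

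V6.5 replicated earlier than the 2 feeder-grown lines at 195 of the 388 members. The comparison was chosen after the levels of V6.5 had been seen. The members were picked partly by 2i profiles of the same 2 lines and not by V6.5. The choice of members can therefore favour a higher V6.5, and how far it does was not tested. A window was called where limma's Benjamini-Hochberg adjusted p was below 0.05 and the difference at least 1, and those 195 members, in 49 regions, were higher and 1 member lower in V6.5 (50.3% higher), against 8.7% higher and 9.25% lower over all autosomal windows and 14.1% higher in the other windows of ESC timing from -2 to -1. The share in the latter range was 44.1% in members. The other windows of that range match members in ESC timing alone, with median timing of -1.70 in NPCs and -1.10 in MEFs. The median difference was 1.01 in members and 0.00 over all windows. V6.5 is 1 profile, whose spread was taken to be that of the other groups, and the line, its C57B6 and 129 parents, its sex and its 2i medium differ together from the feeder lines and cannot be told apart. Without embryos 1 and 3, which enter only the spread, 157 members were called higher and 1 lower, against 10.4% of all windows in either direction.

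Signalling genes and several named regions stood high in V6.5. Gli3 was 2.72 ± 0.32 (SE) higher than in the feeder lines (limma, adjusted p = 0.000506), Wnt5a 2.15 ± 0.26 (0.000558) and Fgf5 1.97 ± 0.34 (0.00302). Their V6.5 values were -0.02, -0.03 and 0.53, against -2.35 and -3.14 for Gli3 in F121-6 and F121-9 on feeders, -2.43 and -1.94 for Wnt5a, and -1.57 and -1.30 for Fgf5. Sema3e stood at 2.18, 2.43 ± 0.37 higher (adjusted p = 0.00167), and Nr2f2 at 0.53, 1.57 ± 0.35 higher (0.00961), while Tshz1 at -1.86 did not pass (0.40 ± 0.33, adjusted p = 0.398). The window of Sema3e lay just inside the rule, with means of -2.01 in ESCs, 0.04 in NPCs and 0.01 in MEFs, and V6.5 stood above each. The feeder lines also averaged above that ESC mean there. Of the 56 genes, 31 had a called window, all higher in V6.5 (55.4%), against 8.93% higher among 18263 protein-coding genes and 15.1% among those in other windows of ESC timing from -2 to -1. Windows were called in 12 of the 15 named regions, including all 6 nearest Efnb2 (mean difference 3.13), all 5 over Efna5 (2.63), 14 of 15 at Irs2 (2.30), all 8 at Anxa3 (2.42) and all 11 over Foxp1 (1.94). None of 11 windows at Wdr11 (mean 0.34), none of 12 over Lrmda (0.34) and none of 4 at Maml3 (0.76) passed.

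The XEN line fell into both directions. Its timing at members ran from -4.24 to 3.48 with a median of -0.03, and was above 0 in 190 windows (49.0%) and below -1 in 113 (29.1%). Over all autosomal windows the shares were 49.8% and 38.8%, with a median of -0.01. XEN was above 0 in 11.1% of the other ESC-late windows and in 27.3% of those of ESC timing from -2 to -1. It was below -1 in 75.9% and 45.4% of them. Against the 3 ESC units outside the rule, 225 members in 78 regions were called earlier in XEN and 17 later (limma, same thresholds), 58.0% and 4.38%, where 26.4% of all autosomal windows were called earlier and 9.94% later. Earlier calls made up 54.8% of members and 41.2% of other windows in the range -2 to -1. The XEN columns lie on the MEF level, and after median centring the members gave 156 earlier and 48 later calls (40.2% and 12.4%, against 14.6% and 21.6% of all windows), and after quantile normalization 153 and 37 (39.4% and 9.54%, against 16.9% and 17.2%). The median over all windows moved from 0.39 to -0.27 and -0.01 under these scalings, and that of the members from 1.56 to 0.90 and 0.98. XEN is 1 line with 2 profiles, assumed to vary like the other groups. The feeder-grown ESC units it was compared with are lines whose 2i profiles entered the rule. The choice of members can therefore favour earlier calls in XEN.

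Among the 15 named regions, the mean difference of XEN from ESCs was highest at Irs2, followed by Wdr11 and Maml3. The 15 windows of Irs2 were all called (mean difference 4.53), as were the 11 at Wdr11 (3.24) and the 4 at Maml3 (3.12). The growth factor Ptn was called in 8 of 8 windows at a mean of 1.77, though its region was still late in XEN, at -0.71. A phosphatase receptor outside the naming rule, Ptprm, singled out after its values were seen, was 5.45 ± 0.35 (SE) earlier in XEN (adjusted p = 4.21e-06), at 3.21, with -1.74 in the ESCs of the rule and 0.14 in MEFs. Fgf5 and Sema3e went the other way, with differences of -2.47 ± 0.66 (limma, adjusted p = 0.0117) and -2.47 ± 0.79 (0.0271), at -3.25 and -1.90, where V6.5 was at 0.53 and 2.18. V6.5 is among the ESC units of this comparison. At the window of Sema3e the ESC lines of the rule had a mean of -2.01, so XEN was not later than those lines there. Gli3 was at -4.01 in XEN but did not pass (-2.17 ± 0.84, adjusted p = 0.0609). Among the named regions, none of the 4 windows at Setbp1 and none of the 6 over Pappa and Astn2 were called, and 3 of 11 over Foxp1 were called, later in XEN. Of the 56 genes, 30 had a window called earlier (53.6%) and 2 later (3.57%), against 18.3% and 7.90% of all protein-coding genes and 42.2% and 13.3% of those in other windows of ESC timing from -2 to -1.

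**Figure D4:**
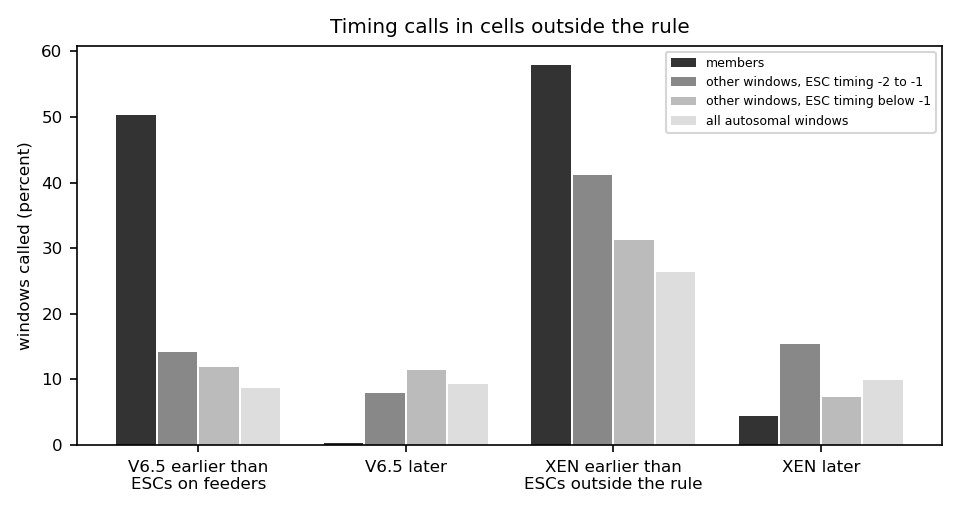
Percent of windows called in each direction for V6.5 ESCs against 2 feeder-grown ESC lines and for the XEN line against 3 ESC units outside the rule. Members show 50.3% earlier in V6.5 where all autosomal windows show 8.7%, and 58.0% earlier in XEN where all show 26.4%; the XEN bars depend on the scaling of the columns.

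XEN cells were early about as often where V6.5 was early as elsewhere. XEN timing was above 0 in 40 of the 83 windows where V6.5 was above 0 (48.2%) and in 150 of the other 305 (49.2%). Near Efnb2 V6.5 stood at 0.56 and XEN at 1.37. Over Foxp1 V6.5 stood at 0.21 and XEN at -2.72, and at Wdr11 V6.5 at -1.69 and XEN at 1.32.

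The 129 and Cas alleles differed at 33.0% of the members in ESCs, between the share over the genome and that of other windows with like ESC timing. An allelic difference is 129 minus Cas, and was not used by the rule. In the 5 ESC lines, 128 members in 55 regions were called (limma, adjusted p below 0.05 and a size of at least 0.5), 84 earlier on 129 and 44 earlier on Cas. These are 21.6% and 11.3% of members, against 13.8% and 12.6% of all autosomal windows and 22.6% and 18.2% of other windows with ESC timing from -2 to -1. In F123 the Cas columns lay lower than the 129 columns (autosomal means -0.667 and -0.663 against -0.603 and -0.598), a shift towards 129 in that line. The share in either direction was 26.4% over all autosomal windows and 40.7% in the other windows of that range, where members stood at 36.6%. Among regions of at least 4 windows, the mean difference towards 129 was highest at Aff3, a factor of the transcription elongation complex family, with 1.62, 1.42, 1.39, 1.65 and 1.21 in F121, in F121-6 and F121-9, in F123 and in Cas129 (mean over 6 windows 1.46 ± 0.18, SD, n = 5 lines). Its window of largest difference was 1.78 ± 0.10 (SE, adjusted p = 5.79e-08). Gli3 (1.25 ± 0.29) and Creb5 (1.13 ± 0.54) also favoured 129, and Maml3 (-1.32 ± 0.36), Lypd6, a regulator of WNT signalling (-0.83 ± 0.19), and Wdr11 (-0.57 ± 0.21) favoured Cas. Cas129, labelled with the opposite parental order, had the sign of the other 4 lines in all 6. The regions were chosen by the mean over all 5 lines, Cas129 included, which favours a shared sign.

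**Figure D5:**
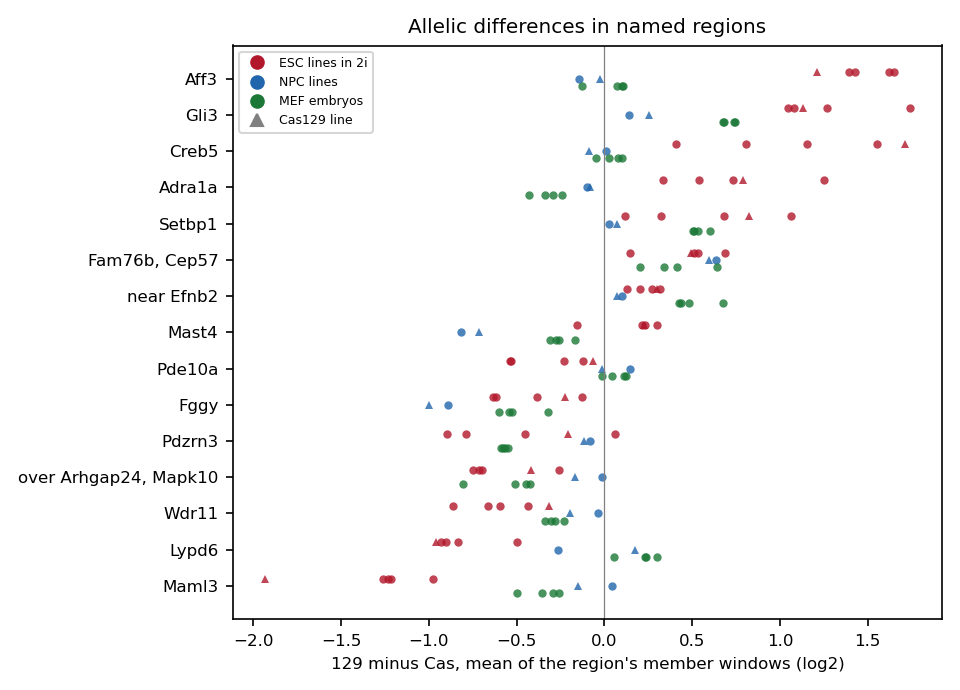
Allelic difference (129 minus Cas, log2) of named regions, 1 point for each ESC line in 2i, NPC line and MEF embryo; triangles are the Cas129 line of opposite cross. ESC lines lie at 1.21 to 1.65 at Aff3 and at -1.93 to -0.97 at Maml3, where NPC and MEF points lie between -0.50 and 0.10.

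In NPCs and MEFs fewer of the members were called. NPCs had 14 in 5 regions (3.61%, 3 earlier on 129 and 11 on Cas, against 4.03% of all windows, 2.16% and 1.87% in the same order), split 1 and 14 after median centring. Fggy, a carbohydrate kinase (-0.94 ± 0.08, SD, n = 2 lines), and the kinase Mast4 (-0.77 ± 0.07) favoured Cas, and Fam76b with Cep57 (0.62 ± 0.03) favoured 129. Without F121-9 or without Cas129, 3 members were called in each case (against 1.15% and 1.11% of all windows), and the windows of Mast4 and of Fam76b with Cep57 no longer passed. MEFs had 63 in 28 regions (16.2%, 33 and 30, against 12.6% of all windows, 5.36% and 7.21%). Without embryos 1 and 3, 20 members were called, against 3.9% of all windows. Gli3 favoured 129 by 0.67, 0.74, 0.68 and 0.75 in embryos 1 to 4, Setbp1 by 0.54 ± 0.04 (SD, n = 4 embryos) and the region nearest Efnb2 by 0.50 ± 0.12, and Cas led at Pdzrn3, a ubiquitin ligase (-0.57 ± 0.02), over Arhgap24 and Mapk10 (-0.55 ± 0.18) and at Fggy (-0.50 ± 0.12). Without embryos 1 and 3, Setbp1, Fggy, Pdzrn3 and the region over Arhgap24 and Mapk10 no longer passed. All embryos are of 1 cross, so strain and parent of origin cannot be told apart in them. In embryos 1 and 4 the 129 columns lay lower than the Cas columns (autosomal means -0.219 to -0.187 against -0.150 to -0.136), a shift towards Cas.

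The allelic difference of MEFs minus that of ESCs was called at a share of members near that over the genome, and that of NPCs minus ESCs at a share near that of other windows with like ESC timing. MEFs minus ESCs gave 108 calls in 50 regions (36 higher, 72 lower; 27.8%, against 27.5% of all windows, 12.4% higher and 15.2% lower), and NPCs minus ESCs 90 in 37 regions (22 and 68; 23.2%, against 16.1%, 7.99% higher and 8.06% lower). With ESC timing from -2 to -1, members stood at 32.3% and other windows at 40.6% for MEFs minus ESCs, and at 26.9% and 25.9% for NPCs minus ESCs. Both comparisons share the ESC lines, and F121-9 and Cas129, which gave both NPCs and ESCs, were not paired in the fit. At the window of largest difference, the MEF minus ESC value was -1.76 ± 0.16 at Aff3 (SE, limma adjusted p = 5.49e-06), -1.90 ± 0.31 at Creb5 (0.000504), -1.46 ± 0.14 at the adrenergic receptor gene Adra1a (1.03e-05), 1.55 ± 0.18 at Maml3 (4.16e-05) and 1.07 ± 0.15 at Lypd6 (0.000194). The NPC minus ESC value was -1.88 ± 0.19 at Aff3 (0.000108), -1.75 ± 0.35 at Creb5 (0.00493), -1.20 ± 0.21 at Gli3 (0.00226), 1.82 ± 0.23 at Maml3 (0.000314), 0.88 ± 0.19 at Lypd6 (0.008) and 0.92 ± 0.17 at Wdr11 (0.00302). Creb5 no longer passed without F121-9 NPCs, nor Lypd6 without Cas129 NPCs. At Aff3 the MEF values were 0.10, 0.07, -0.13 and 0.10 and the NPC values -0.15 and -0.03, all below every ESC line. Without embryos 1 and 3 the MEF minus ESC calls were 66, against 15.6% of all windows. Without F121-9 NPCs the NPC minus ESC calls were 36 and without Cas129 NPCs 37, against 7.08% and 7.76% of all windows.

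Where both ESCs and MEFs were called, 19 of 27 members had 1 sign (70.4%), against 70.1% of 2007 windows over the autosomes. Of the 128 members called in ESCs and the 63 called in MEFs, 27 were in both, 21.1% and 42.9% of these lists, where the same shares over all autosomal windows were 17.3% and 36.3%. ESCs and NPCs shared 1 called window, 7.14% of those called in NPCs against 46.8% over the autosomes, and NPCs and MEFs shared 4, 28.6% of those called in NPCs against 28.9%. In each of these the sign was the same, as it was in 88.9% and 89.7% of the autosomal windows called in both.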

How the data were processed

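The 54 Repli-Seq libraries form 27 profiles. The deposited values, read here as log2, are the authors' log ratios of early to late signal for each allele in 50-kb windows on mm10. No source names the base. Per the submitters' processing notes, Bowtie2, SAMtools and bedtools were used, and allele assignment, smoothing and scaling are not given in the sources used here.

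Timing (mean of both alleles) and the allelic difference (129 minus Cas) were computed for each profile and averaged for each line or embryo. Models were fitted over all 43941 autosomal windows in R 4.3.3 with the package limma 3.58.1, by two-sided tests with Benjamini-Hochberg adjustment over all windows, and checked on simulated data. Allelic fits used 5 ESC lines in 2i, 2 NPC lines and 4 embryos. XEN and V6.5 were tested against ESC units outside the rule, the NPCs and embryos entering for the spread. The files hold no counts, so no interval for depth is given, and all columns of samples were used.

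Regions named are the 10 with most member windows, the 10 of largest difference and, for each allelic result, the 3 largest in each direction with a called window, all of at least 4 windows. Member genes of 17 lists were named as well. Members, lists and rules were chosen with earlier results of these data known. Genes were placed by their start in RefSeq on GRCm38.p6.

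Alternatives changed the scaling, the size asked for, the unit, the embryos, the lines and the member thresholds.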

Additional observations from a re-analysis of the deposited data

Results flagged for a closer look

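Values of single lines or embryos that stood far from the rest of their group (Dixon's criterion) occurred 5 times among 64 groups checked, where chance flags about 1 in 20. In ESCs, the allelic difference at Mast4 was -0.16 in F123, against 0.22 to 0.30 in the other lines, and at Lypd6 -0.50 in F123, against -0.96 to -0.83. In MEFs, embryo 4 had a timing of 0.64 in the region nearest Prl5a1, against 0.82 to 0.85, and of 2.09 at Irs2, against 1.88 to 1.90, and embryo 3 had an allelic difference of -0.13 at Aff3, against 0.07 to 0.10.

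The allelic difference differed between cell types by a test of the difference itself at 12 windows of named regions. For MEFs against ESCs the values were -1.76 at Aff3, -1.90 at Creb5, -1.46 at Adra1a, 1.55 at Maml3, 1.07 at Lypd6 and 0.51 at Pde10a, and the last lost its call without embryo 1, 3 or 4 or without F121-6 or F123. For NPCs against ESCs they were -1.88 at Aff3, -1.75 at Creb5, -1.20 at Gli3, 1.82 at Maml3, 0.88 at Lypd6 and 0.92 at Wdr11.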

How the results depend on the processing

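No named region reversed its sign under any alternative, and 689 of their values stayed on the same side of the threshold or within the spread between ESC lines, 57 no longer passed, 4 newly passed and 12 moved further. The XEN calls at Anxa3, Cog6 with Lhfp, Mmd with Hlf and over Efna5 were lost under both other scalings. The number of members was 703 with ESC timing below -0.5, 213 below -1.5, 205 with NPC and MEF timing above 0.5 and 650 with no limit on NPC minus MEF. After median centring 397 windows met the rule and 168 were shared, and after quantile normalization 352 and 231, so which windows are members depends on the scaling. Leaving out a line or embryo gave 374 to 421. At 2 times the minimum size the member calls fell to 36 (ESC allelic), 2 (NPC), 1 (MEF), 45 (MEF minus ESC), 36 (NPC minus ESC) and 150 (XEN), and with no minimum they were 201 (ESC) and 108 (MEF). Without embryos 1 and 3, which leaves 2 embryos, they were 7 (NPC), 20 (MEF) and 66 (MEF minus ESC). In regions of at least 4 windows, which hold fewer members, they were 70 (ESC), 32 (MEF) and 56 (MEF minus ESC). The mean of the ESC units outside the rule was below -1 in 79.6% of members, in 41.8% after median centring, in 64.4% after quantile normalization and in 68.0% to 87.6% without 1 unit. Leaving out 1 unit gave 124 to 132 calls (ESC), 3 (NPC, either line), 49 to 53 (MEF), 96 to 114 (MEF minus ESC), 36 and 37 without an NPC line and up to 105 otherwise (NPC minus ESC), 227 to 292 (XEN) and 203 to 220 (V6.5), and 96.1% to 99.5% of members below 0. A group left with 1 sample was assumed to vary like the others. The replicate numbers do not pair profiles: same-numbered profiles of 66 pairs of groups correlated at -0.40 to 0.30 in timing (median -0.0070) and -0.07 to 0.04 in the allelic difference (median -0.0011). With the replicate block the NPC calls were 22, and the other counts stayed within 1.5 times (127, 63, 115, 107 and 286). The V6.5 comparison and its alternatives were chosen after seeing the data.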
